A study of Homo sapiens with 44 samples.

Results

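The 9 genes followed here belong to the MHC class I presentation pathway and were measured in a cytokine response atlas of colon fibroblasts: the heavy chain genes HLA-B, HLA-C, HLA-E and HLA-F, the light chain gene B2M, the peptide loading genes TAP1, TAP2 and TAPBP, and the regulator NLRC5. They were chosen by name as row symbols of the processed count table, all 9 were found among its 40663 symbols, and all 9 were among the 9513 genes tested. The cells were Ccd-18Co, a human colon fibroblast line, so the values describe 1 line in culture. After 72 h without serum they were left unstimulated or received 1 recombinant cytokine, and bulk RNA-seq followed 24 h later. The 11 groups of 4 replicates each were unstimulated cells, cells given the interferons IFNα or IFNγ, TNF, OSM (oncostatin M), TGF-β1, IL-6, IL-22, IL-17A or IL-13, each at 10 ng/ml, and cells given IL-1β, at 0.1 ng/ml per the labels. The question put to these genes was which cytokines raise the class I pathway in fibroblasts, and by how much.

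Class I molecules show peptides from inside the cell to CD8+ T cells and natural killer cells. A heavy chain pairs with the light chain β2-microglobulin, encoded by B2M, in the endoplasmic reticulum, where the transporter made of TAP1 and TAP2 brings in peptides cut by the proteasome and tapasin, encoded by TAPBP, holds the empty molecule to the transporter until a peptide fits. HLA-B and HLA-C are classical heavy chains, HLA-E presents leader peptides of other class I chains to natural killer receptors, and HLA-F is a non-classical chain whose part in presentation is less settled. NLRC5 is a nuclear coactivator that binds class I promoters together with RFX proteins, and interferons, through STAT and IRF factors, and TNF, through NF-κB, are known inducers of the pathway.

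In GENCODE release 44 (build GRCh38), 7 of the 9 genes lie in the MHC on chromosome 6: HLA-F at chr6:29722775-29738528 and HLA-E at chr6:30489509-30494194 on the plus strand, and HLA-C at chr6:31268749-31272130, HLA-B at chr6:31353872-31367067, TAP2 at chr6:32821833-32838739, TAP1 at chr6:32845209-32853816 and TAPBP at chr6:33299694-33314284 on the minus strand. B2M lies at chr15:44711358-44718851 and NLRC5 at chr16:56989485-57083531, both on the plus strand. The whole of TAP1 is overlapped on the opposite strand by PSMB9, over 8608 bases, and HLA-F by HLA-F-AS1 over 11928 bases. These are overlaps of whole gene spans, introns included. The counting is not stated to use strand, so reads cannot be told apart where the transcripts of both strands share sequence. The canonical heavy chain transcripts also share sequence with close copies: of their distinct 31-base words, the unit by which the authors' quantifier kallisto matches reads by default, 32% in HLA-B, 19.6% in HLA-C, 13.9% in HLA-E and 43.7% in HLA-F occur in transcripts of other genes. For B2M and NLRC5 that share was 0%. The share was 44.6% in TAPBP, mostly with an antisense transcript, 35.5% in TAP2, all of it with a same-strand protein-coding gene that spans TAP2 over 16907 bases, and 22.6% in TAP1, mostly with PSMB8-AS1. Levels of these 7 genes are therefore uncertain to the extent that reads were split between such transcripts.

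Promoter sequence is shown for 5 of the members, since it is where the factors downstream of interferons and TNF are known to act. RefSeq windows of 300 bases, from 250 before to 50 after an annotated start (build GRCh38.p14), matched 7 of the 9 genes by symbol; HLA-E and NLRC5 had no match. The 250 bases before the start are printed 5′ to 3′ on the strand of the gene, with capitals for every match, on either strand, to GAANNGAA (a relaxed interferon response element), TTCNNNGAA (a gamma-activated site), the NF-κB consensus of 10 bases, TGACGC (an X2-like element) or ATTGG (the Y box, an inverted CCAAT). Some annotated transcripts start further upstream and overlap these stretches.
HLA-B, chr6:31357180-31357429, minus strand: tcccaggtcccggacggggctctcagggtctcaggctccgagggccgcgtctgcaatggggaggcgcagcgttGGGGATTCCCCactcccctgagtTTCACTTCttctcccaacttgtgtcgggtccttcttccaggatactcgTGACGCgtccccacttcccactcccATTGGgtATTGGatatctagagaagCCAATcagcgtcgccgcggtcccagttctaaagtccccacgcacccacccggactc
HLA-C, chr6:31272093-31272342, minus strand: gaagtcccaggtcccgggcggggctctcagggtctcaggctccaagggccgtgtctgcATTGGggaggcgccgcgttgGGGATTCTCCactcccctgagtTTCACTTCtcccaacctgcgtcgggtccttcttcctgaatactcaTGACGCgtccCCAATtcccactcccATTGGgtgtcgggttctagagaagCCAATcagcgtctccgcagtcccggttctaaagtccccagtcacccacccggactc
HLA-F, chr6:29723184-29723433, plus strand: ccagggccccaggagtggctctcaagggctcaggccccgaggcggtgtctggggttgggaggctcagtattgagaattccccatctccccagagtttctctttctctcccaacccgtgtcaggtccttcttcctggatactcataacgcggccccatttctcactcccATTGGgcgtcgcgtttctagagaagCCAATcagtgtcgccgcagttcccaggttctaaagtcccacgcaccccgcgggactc
B2M, chr15:44711267-44711516, plus strand: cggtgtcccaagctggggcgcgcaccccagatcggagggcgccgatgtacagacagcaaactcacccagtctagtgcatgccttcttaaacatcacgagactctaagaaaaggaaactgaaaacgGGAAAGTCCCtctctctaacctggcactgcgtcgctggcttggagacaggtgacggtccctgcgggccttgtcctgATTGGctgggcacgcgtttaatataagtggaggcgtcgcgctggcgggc
TAP1, chr6:32853705-32853954, minus strand: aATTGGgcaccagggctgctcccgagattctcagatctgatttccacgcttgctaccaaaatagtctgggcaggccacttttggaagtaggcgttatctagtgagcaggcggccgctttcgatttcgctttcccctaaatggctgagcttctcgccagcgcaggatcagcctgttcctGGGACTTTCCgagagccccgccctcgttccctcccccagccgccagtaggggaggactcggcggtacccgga
Near the middle of the stretch, HLA-B and HLA-C carried in the same order an NF-κB match, the interferon element, the X2-like element and the Y box. In HLA-B these began at -177, -154, -106 and -81 relative to the start, and in HLA-C at -172, -150, -105 and -80. The HLA-F stretch held the Y box at -82 and a CCAAT on the other strand at -57, and none of the other letters searched. B2M held an NF-κB match at -125 and a Y box at -49. The TAP1 stretch held an NF-κB match at -72 and a Y box at -249, and the window of a second annotated TAP1 start held the only gamma-activated site match among the members, at -189. Over the 7 genes with a window, the NF-κB consensus was found in 5 (HLA-B, HLA-C, B2M, TAP1 and TAPBP), against 5.91% of all 35116 windows. A gene was counted if any of its windows held a match, whereas the shares are over single windows, so the units differ. The Y box was found in 5 against 34.6%, the X2-like element in 3 against 9.14%, the interferon element in 3 (HLA-B, HLA-C and TAP2) against 19%, and the gamma-activated site in 1 against 7.66%. The interferon element was searched with 1 spacing only. GAANNGAA leaves out the wider spacing of gaaactgaaa in B2M, tttctctttc in HLA-F, tttcgctttc in TAP1 and gaaagtgaaa in TAPBP. A gene without a match is therefore not shown to lack an interferon response element. A match is a description of letters and not a bound site.

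Total estimated counts per library ranged from 742173 to 2213424 (median 1480883), so that 3 counts, the limit below which a gene is called not detected, corresponded to 1.39 to 3.85 CPM, the count scaled to a common library total, depending on the library. Levels below are CPM adjusted by TMM factors, and the limit of 3 counts covers counting error only. The fibroblast label held: all 8 fibroblast markers had counts in every library, with DCN, the proteoglycan decorin, at 10600 to 25900 CPM and the 8 markers summing to 16600 to 52100 CPM. The 3 epithelial markers summed to at most 1.71 CPM and the 3 endothelial markers to at most 2.65 CPM. Of 5 leukocyte markers, CD3E and CD79A were at 0 in every library and PTPRC reached at most 1.6 CPM; CD68, a lysosomal gene, made up most of a summed level of 0 to 9.3 CPM in unstimulated, 36.1 to 73.8 CPM in IFNα and 8.31 to 20.6 CPM in IFNγ libraries, and the part of these few counts in the results was not tested. Among the unstimulated libraries replicate 1 stood apart. Across 5415 well-measured genes its deviation from the group mean correlated with the GC content of the transcript at r = 0.41. In the other 3 unstimulated libraries r was -0.15 to -0.19. The group mean includes each library, so these 3 values are not independent of that of replicate 1. All 44 libraries ran from -0.43 (TGF-β1 replicate 4) to 0.41. Of the 9 members, 8 lie above the median GC content of those genes. Values without unstimulated replicate 1 are therefore given where they change a call or move a called fold by over 1.5 times. This was done for the interferon, TNF and IL-1β comparisons and for members called in the main test. For members newly called with IL-13, TGF-β1 or OSM without this library, only the counts are given, in the last section. A GC correction was added after the data were seen.

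Both interferons raised all 9 members, TNF raised 6, and the other cytokines raised between 0 and 3. Against unstimulated cells, the quasi-likelihood test of edgeR, with p-values adjusted over all 9513 genes by Benjamini and Hochberg's method, called 9 of 9 members higher with IFNα, where 4.99% of all genes tested were called higher, and 9 of 9 with IFNγ, where 5.52% were. With TNF it called 6 of 9 against 5.37% of all genes, with IL-1β 3 against 3.46%, with IL-13 1 against 1.53%, with OSM 1 against 1.42%, and with IL-17A 1 against 0.599%. No member was called with IL-6 (0.0105% of all genes), IL-22 (0%) or TGF-β1 (2.61%), where 1, 1 and 2 members had an unadjusted p under 0.05, and DESeq2 called 0 in each, giving no adjusted p for 5 members with IL-22 and for 1 with TGF-β1. No member was called lower with any cytokine; at an unadjusted p under 0.05 and by DESeq2 that count was also 0. The median log2 fold change of the 9 members was 3.40 with IFNα, 3.75 with IFNγ and 1.43 with TNF, while the median over all genes tested lay between -0.05 and 0 in every comparison. All these comparisons share the 4 unstimulated libraries. HLA-F and NLRC5 entered the tested set through the interferon libraries. When the other cytokines were each fitted with unstimulated cells alone, the filter on low counts removed both genes every time. In the same fits TAP1 was kept only with IL-13 and TNF, and TAP2 only with TNF and OSM. The interferon calls of HLA-F and NLRC5 are therefore not independent of the filter. In bulk RNA, fewer cells of a kind and less RNA per cell cannot be told apart.

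**Figure D1:**
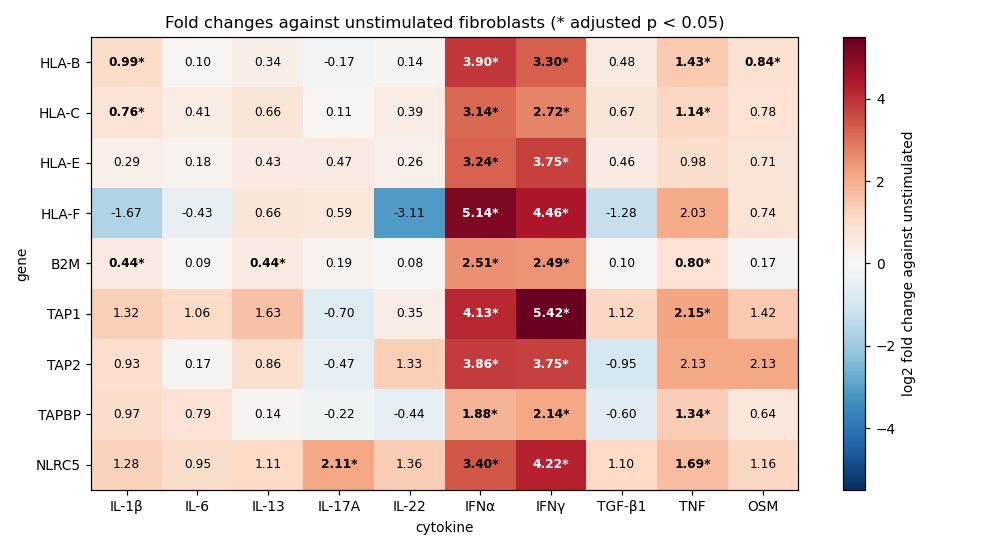
Log2 fold change of each of the 9 genes (rows) for each of the 10 cytokines (columns) against unstimulated cells, 4 libraries per group; a star and bold type mark an adjusted p under 0.05. The IFNα and IFNγ columns are starred in all 9 rows, from 1.88 (TAPBP) to 5.42 (TAP1), and the TNF column in 6.

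Among the heavy chains, HLA-B had the steadiest levels in unstimulated cells, leaving aside HLA-F, which was near 0. It measured 26.9, 25.5, 27.4 and 27.3 CPM in the 4 unstimulated libraries, 420, 412, 381 and 392 CPM with IFNα and 285, 233, 316 and 223 CPM with IFNγ. Every IFNα library lay above every IFNγ library, and both groups lay far above the unstimulated one. The fitted rise was 14.9-fold with IFNα (log2 3.90 ± 0.20 SE, adjusted p = 1.47e-19, edgeR) and 9.83-fold with IFNγ (log2 3.30 ± 0.20, adjusted p = 2.24e-17). HLA-B was raised by 5 cytokines, as was B2M. It reached 74.1, 58.6, 68.3 and 86.8 CPM with TNF (2.69-fold, adjusted p = 6.06e-07), 42.9, 43.1, 74.3 and 53.8 CPM with IL-1β (1.99-fold, adjusted p = 0.000394) and 47.5, 43.3, 51.4 and 50.3 CPM with OSM (1.79-fold, adjusted p = 0.00653). In all 3 groups each library exceeded each unstimulated one. The OSM rise did not pass with no filter on low counts (adjusted p = 0.0534) or after GC correction (log2 0.53, adjusted p = 0.235). Across genes, the difference between OSM and unstimulated libraries correlated with GC content at r = 0.35. This was the highest value, but not particular to OSM: r was 0.3 for IL-22, 0.29 for IFNγ, 0.22 for TNF and 0.15 for IFNα, and lowest for IL-1β (0.03).

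HLA-C, the other classical heavy chain, was less even at rest, at 41.1, 35, 20.4 and 19.1 CPM in unstimulated replicates 1 to 4. With IFNα it measured 283, 321, 225 and 202 CPM and with IFNγ 176, 142, 223 and 229 CPM. The 2 interferon groups overlapped each other, and neither overlapped the unstimulated libraries. The rises were 8.81-fold (log2 3.14 ± 0.24 SE, adjusted p = 5.48e-14) and 6.58-fold (log2 2.72 ± 0.24, adjusted p = 5.54e-12). TNF raised HLA-C 2.21-fold (58.6 to 70.6 CPM, adjusted p = 0.000651). With IL-1β the level was 41.1 to 59.7 CPM, its lowest library reaching only the level of the highest unstimulated one, and the 1.70-fold rise passed narrowly (adjusted p = 0.04). It was lost without unstimulated replicate 3 (adjusted p = 0.152) or 4 (0.181), without IL-1β replicate 1 (0.054), 3 (0.155) or 4 (0.0932), with no filter on low counts (0.105) and with only the 8 libraries compared (0.15).

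HLA-E showed the widest spread among unstimulated libraries, 69.5, 27, 9.15 and 18.4 CPM, the highest being replicate 1. It measured 355, 420, 264 and 174 CPM with IFNα and 349, 282, 470 and 624 CPM with IFNγ, so that the lowest interferon library was still above the highest unstimulated one. The rise was 9.47-fold with IFNα (log2 3.24 ± 0.38 SE, adjusted p = 6.07e-09) and 13.5-fold with IFNγ (log2 3.75 ± 0.38, adjusted p = 2.76e-10); without unstimulated replicate 1 these became log2 4.06 and 4.57. With TNF it measured 52.2, 31.9, 94.5 and 72.8 CPM, which overlapped the unstimulated range, and the log2 difference of 0.98 had an adjusted p of 0.078. That TNF difference was log2 1.79 without unstimulated replicate 1 (adjusted p = 0.000779), and it also passed with the DESeq2 Wald test (adjusted p = 0.0463), with no filter on low counts (0.00345) and without TNF replicate 2 (0.0312).

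HLA-F was near the limit of detection outside the interferon groups. It had no counts in unstimulated replicates 1 to 3 and 4 counts (2.73 CPM) in replicate 4, and none in any IL-22 library. IFNα took it to 29.2, 30.3, 17.5 and 26.8 CPM and IFNγ to 18.1, 9.97, 12.1 and 24.2 CPM, which are sums of 164 and 84 counts over 4 libraries. Every interferon library exceeded every other library of the series. The fitted log2 fold change was 5.14 ± 0.96 SE with IFNα (adjusted p = 0.000138) and 4.46 ± 0.96 with IFNγ (adjusted p = 0.00115), but its size rests on those 4 counts: without unstimulated replicate 4 the comparison group is at 0 and the fitted values of 8.25 and 7.58 depend on the prior count. With TNF it measured 3.53, 3.45, 4.5 and 0.536 CPM (adjusted p = 0.214; 0.0175 without unstimulated replicate 4).

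**Figure D2:**
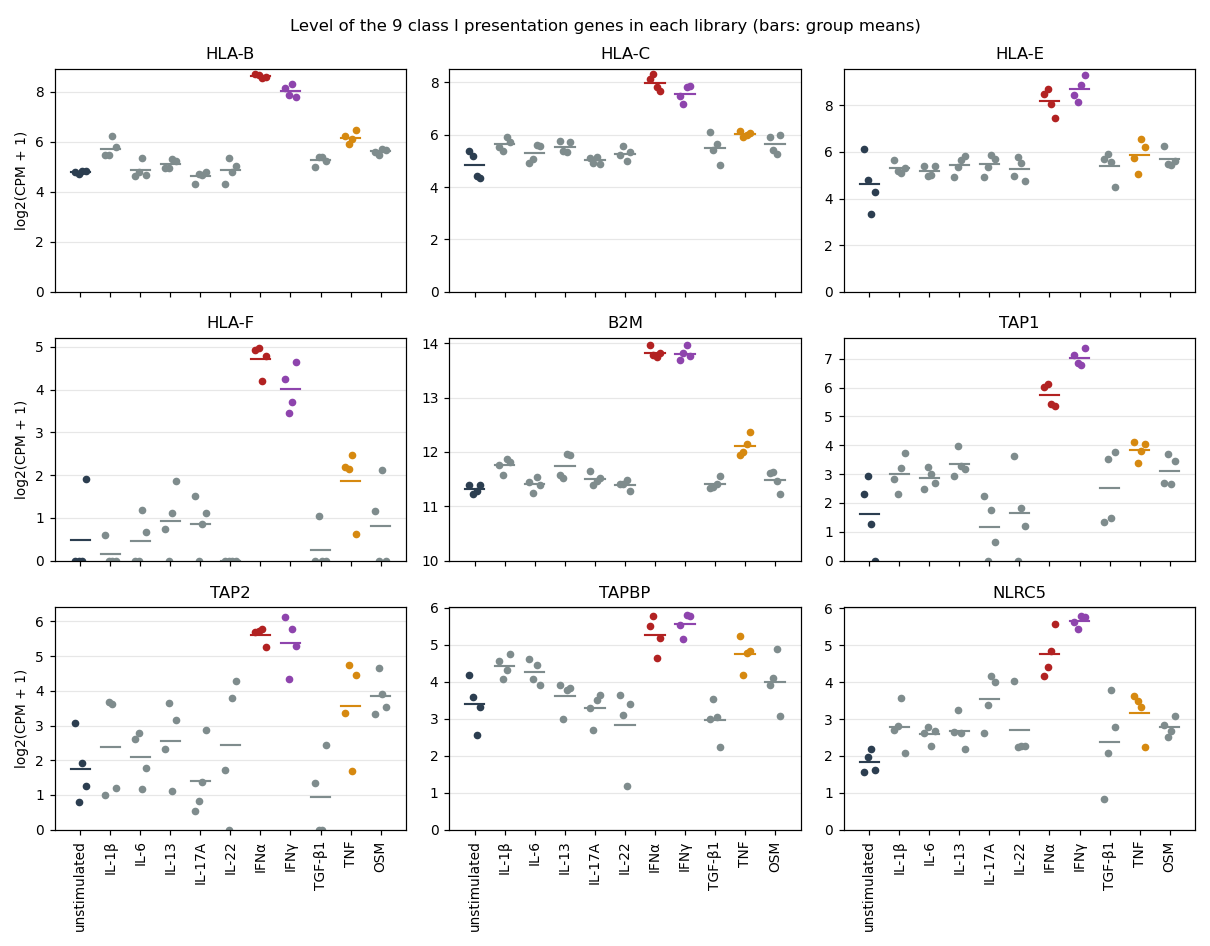
Level of each of the 9 genes as log2(CPM + 1) in each of the 44 libraries (points), by group along the horizontal axis, with the group mean as a bar; the B2M panel starts at 10, the others at 0. In every panel the 4 IFNα and 4 IFNγ points lie above all 4 unstimulated points, while unstimulated HLA-E spans 9.15 to 69.5 CPM and unstimulated HLA-B only 25.5 to 27.4 CPM.

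B2M, the light chain that all class I molecules share, was the most abundant member. It stood at 2670, 2400, 2480 and 2670 CPM in unstimulated cells, 16000, 14100, 13700 and 14500 CPM with IFNα and 13300, 14400, 16000 and 13900 CPM with IFNγ. The 2 interferon groups covered the same range. The rise was 5.70-fold with IFNα (log2 2.51 ± 0.13 SE, adjusted p = 2.05e-19) and 5.62-fold with IFNγ (log2 2.49 ± 0.13, adjusted p = 3.43e-19). TNF raised it 1.75-fold to 3950, 4110, 4510 and 5290 CPM (adjusted p = 8.54e-06). Smaller rises passed with IL-1β (1.36-fold, 3060 to 3730 CPM, adjusted p = 0.0196) and IL-13 (1.36-fold, 2930 to 3980 CPM, adjusted p = 0.034), in each of which every library lay above every unstimulated one. Both of these were lost with no filter on low counts (adjusted p = 0.129 and 0.193) and with only the 8 libraries compared (0.133 and 0.203). The IL-1β rise was also lost without unstimulated replicate 2 (0.0641) or IL-1β replicate 3 (0.0705) or 4 (0.0531), and the IL-13 rise without unstimulated replicate 2 (0.0953) or 4 (0.0603) or IL-13 replicate 3 or 4 (0.105 each).

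The peptide transporter subunits started from a few counts per library. TAP1 had 3.92, 6.56, 1.41 and 0 CPM in unstimulated replicates 1 to 4, 64.5, 68.5, 42.1 and 39.9 CPM with IFNα, and 139, 115, 110 and 164 CPM with IFNγ. It was the member with the largest fitted rise with IFNγ, 42.9-fold (log2 5.42 ± 0.62 SE, adjusted p = 6.31e-09), and rose 17.5-fold with IFNα (log2 4.13 ± 0.61, adjusted p = 1.59e-06). Leaving out unstimulated replicate 2, the highest, gave log2 6.04 and 4.73 instead, and leaving out replicate 4, the lowest, gave 5.05 and 3.75. PSMB9, which overlaps TAP1 on the other strand and encodes an immunoproteasome subunit, rose too, from 15.5 to 28.7 CPM in unstimulated to 526 to 743 CPM in IFNα and 710 to 1020 CPM in IFNγ libraries, and what its reads add to TAP1 was not tested. TNF brought TAP1 to 16.2, 9.47, 12.8 and 15.5 CPM, each above the unstimulated libraries (4.45-fold, adjusted p = 0.0159; 0.0543 without unstimulated replicate 3, 0.0677 without replicate 4 and 0.0622 with only the 8 libraries compared).

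TAP2 also started low. Unstimulated libraries held 7.34, 0.729, 2.81 and 1.37 CPM, IFNα libraries 51.2, 52, 54 and 37.4 CPM, and IFNγ libraries 68.5, 19.1, 53.8 and 38.4 CPM. The interferon rises were 14.6-fold (log2 3.86 ± 0.81 SE, adjusted p = 0.000556) and 13.5-fold (log2 3.75 ± 0.81, adjusted p = 0.00109), or log2 4.82 and 4.70 without unstimulated replicate 1. With TNF the 4 values of 9.18, 25.8, 2.25 and 20.9 CPM overlapped the unstimulated ones (log2 2.13, adjusted p = 0.0825; 0.0325 without unstimulated replicate 1, 0.0454 without TNF replicate 3 and 0.00503 with no filter on low counts). OSM libraries, at 9.13, 24.3, 14 and 10.7 CPM, all lay above the unstimulated ones without passing the test (adjusted p = 0.152).

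TAPBP, which encodes tapasin, changed least of the 9 with the interferons. It measured 17.1, 10.9, 4.93 and 8.88 CPM in unstimulated cells, 44.1, 54, 23.8 and 35.5 CPM with IFNα and 45.2, 34.9, 54.6 and 54.1 CPM with IFNγ. The rises were 3.69-fold (log2 1.88 ± 0.39 SE, adjusted p = 0.000426) and 4.41-fold (log2 2.14 ± 0.39, adjusted p = 9.36e-05). TNF raised it 2.52-fold, to 36.7, 17.2, 26.3 and 27.3 CPM (adjusted p = 0.0165), the lowest of these being barely above the highest unstimulated library; the call was lost without unstimulated replicate 3 (adjusted p = 0.0749) or 4 (0.0523), without TNF replicate 1 (0.0689), with no filter on low counts (0.0522) and with only the 8 libraries compared (0.0605).

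NLRC5, the coactivator of class I genes, was low and even at rest, with 1.96, 2.92, 3.52 and 2.05 CPM. IFNγ brought it to 48.2, 42.4, 54.6 and 53.4 CPM (18.7-fold, log2 4.22 ± 0.54 SE, adjusted p = 9.84e-08) and IFNα to 17.1, 20.4, 27.8 and 46.7 CPM (10.5-fold, log2 3.40 ± 0.54, adjusted p = 5.89e-06). The IFNγ libraries were close together and the IFNα libraries spread up to the edge of the IFNγ range. NLRC5 was the 1 member called with IL-17A, at 5.1, 9.36, 16.8 and 14.9 CPM (4.33-fold, adjusted p = 0.0297), all above the unstimulated libraries. That call did not hold without unstimulated replicate 1 (adjusted p = 0.127), 2 (0.093) or 4 (0.0807), nor without IL-17A replicate 3 (0.114) or 4 (0.0971). The TNF rise, to 11.3, 10.3, 9 and 3.75 CPM (3.22-fold, adjusted p = 0.037), was lost without any 1 of 6 libraries (unstimulated replicates 1, 2 and 4, TNF replicates 1, 2 and 3; adjusted p between 0.0691 and 0.102), with no filter on low counts (0.106) and after GC correction (0.133). With only the 8 libraries compared, NLRC5 fell under the filter on low counts in both contrasts and was not tested.

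The 2 interferons were next compared directly, which asks whether the type I and type II cytokine act on different parts of the pathway. In this contrast 4.46% of all genes tested were called higher with IFNγ and 4.93% lower. Of the members, 0 were called higher and 1, HLA-B, was called lower: it was 0.658 times its IFNα level (log2 -0.60, 95% interval -0.96 to -0.25, adjusted p = 0.0194, edgeR), with all IFNγ libraries below all IFNα libraries. At an unadjusted p under 0.05 there was 1 member higher, TAP1, and DESeq2 called it. TAP1 was 2.45-fold higher with IFNγ (log2 1.29, 95% interval 0.33 to 2.26, adjusted p = 0.0845), again with no overlap between the groups, and passed with the DESeq2 Wald test (adjusted p = 0.0289), with no filter on low counts (0.0224) and with only the 8 libraries compared (0.00641). The HLA-B call in turn was lost with no filter (adjusted p = 0.178) and without IFNα replicate 1 (0.0642) or 2 (0.0557) or IFNγ replicate 2 (0.0677) or 4 (0.091). For the remaining members the intervals included 0 and the groups overlapped: HLA-C (log2 -0.42, -0.86 to 0.02), HLA-E (0.51, -0.16 to 1.18), HLA-F (-0.68, -2.17 to 0.80), TAP2 (-0.11, -1.47 to 1.24), TAPBP (0.26, -0.47 to 0.99) and NLRC5 (0.83, -0.07 to 1.72). The interval was narrowest for B2M (log2 -0.02, -0.27 to 0.23). After GC correction HLA-C was also called lower with IFNγ (log2 -0.63, adjusted p = 0.0344).

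**Figure D3:**
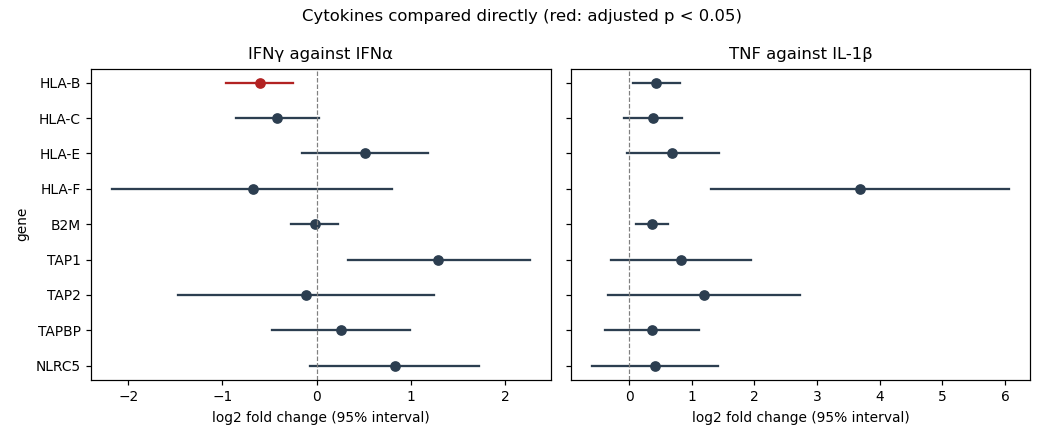
Log2 fold change of each gene with its 95% interval for IFNγ against IFNα (left) and TNF against IL-1β (right), 4 libraries per group; red marks an adjusted p under 0.05. HLA-B on the left is the single red point, TAP1 lies at 1.29, and the B2M interval runs from -0.27 to 0.23.

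TNF and IL-1β, both activators of NF-κB, were compared in the same way, although their doses differed (10 and 0.1 ng/ml per the labels; the study's text is not uniform on the IL-1β dose and in 1 place gives a lower one). Of all genes tested, 0.452% were higher and 0.694% lower with TNF. All 9 members had a positive difference, with a median of 0.43 (log2), and 0 were called; 3 (HLA-B, HLA-F and B2M) had an unadjusted p under 0.05 and DESeq2 called 1. The libraries did not overlap for B2M (log2 0.36, 95% interval 0.11 to 0.62, adjusted p = 0.174) and for HLA-F, which had counts in 1 of 4 IL-1β libraries (at most 0.505 CPM) and in all TNF libraries (adjusted p = 0.128).

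Interferon levels exceeded TNF levels for most members, in comparisons added after the data were seen. Of all genes tested, 8.35% were called higher with IFNα than with TNF and 4.51% with IFNγ than with TNF. IFNα was higher than TNF for 7 of 9 members, from log2 1.71 (B2M, NLRC5) to 3.11 (HLA-F), with TAP2 (adjusted p = 0.0945) and TAPBP (0.369) not passing; NLRC5 was lost without IFNα replicate 4 (0.0672). IFNγ was higher than TNF for 6 of 9, the largest being TAP1 (log2 3.27, adjusted p = 1.31e-05), with HLA-F (0.0607), TAP2 (0.19) and TAPBP (0.212) not passing. With no filter on low counts TAP2 passed in both (adjusted p = 0.00954 and 0.0301), and HLA-F passed for IFNγ with the DESeq2 Wald test (0.019).

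Ordered by mean CPM over the 11 groups, IFNα ranked first for HLA-B, HLA-C, HLA-F, B2M and TAP2, and IFNγ for HLA-E, TAP1, TAPBP and NLRC5. TNF came next after both for 7 members, OSM for TAP2 and IL-17A for NLRC5. Of 90 neighbouring pairs in these orders, 7 differed at an adjusted p under 0.05 (edgeR). Of these, 5 separated the lower interferon from TNF (HLA-B, HLA-C, HLA-E, B2M and TAP1), 1 was IFNα above IFNγ for HLA-B, and 1 was TNF above IL-13 for B2M (4470 against 3470 CPM, adjusted p = 0.0399). Below TNF no neighbours differed beyond their spread for any other member, so the order of adjacent groups there is not resolved. Groups further apart were not compared in this step. Some groups below TNF did stand above unstimulated cells in the tests given above, such as IL-1β and OSM for HLA-B.

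Levels of different members can be compared only per length, here as CPM per kb of the canonical transcript. In unstimulated cells B2M stood at 2710 ± 144 CPM per kb (SD, n = 4), above HLA-C (18.8 ± 7.05), HLA-B (17.4 ± 0.576) and HLA-E (12.2 ± 10.5), whose ranges overlapped in part. TAPBP (3.03 ± 1.48), TAP1 (1.11 ± 1.08), TAP2 (0.543 ± 0.529), HLA-F (0.462 ± 0.923) and NLRC5 (0.385 ± 0.11) were lower. With IFNα the order was B2M (15500 ± 1050), HLA-B (261 ± 11.7), HLA-C (167 ± 35.3) and HLA-E (119 ± 42.2), and with IFNγ B2M (15200 ± 1220), HLA-B (172 ± 28.5), HLA-E (169 ± 58.9) and HLA-C (125 ± 26.8). The order among the heavy chains depends on the length used: per kb of all annotated exons, HLA-E averaged 104 and HLA-B 86.8 with IFNα, and 148 and 57.2 with IFNγ. Summed over canonical lengths, the 4 heavy chains amounted to 1.80% ± 0.564 of B2M per kb in unstimulated, 2.45% ± 0.316 in TNF, 3.66% ± 0.562 in IFNα and 3.14% ± 0.579 in IFNγ cells (SD, n = 4). TAP1 stood above TAP2 in every interferon library, at 20 ± 5.53 against 8.62 ± 1.35 CPM per kb with IFNα and 49.2 ± 9.14 against 7.97 ± 3.75 with IFNγ.

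The make-up of the heavy chain transcripts was set side by side, a measure chosen after the values were seen. HLA-E made up 20.6% ± 4.49 of the 4 heavy chains per kb with IFNα (14.4% to 24.9%) and 34.8% ± 6.41 with IFNγ (30.5% to 44.1%), so that the libraries did not overlap (exact permutation test, two-sided, p = 0.0286, the smallest that 4 against 4 libraries allow). HLA-C went the other way, from 29.4% ± 1.62 to 26.1% ± 0.753 (exact permutation p = 0.0286). The 4 shares of a library add up to a fixed total, so a higher HLA-E share lowers the others. The HLA-C shift is therefore not a separate result. Compared by level, HLA-C did not pass between the interferons in the main test (log2 -0.42, adjusted p = 0.265, edgeR). HLA-B averaged 46.9% with IFNα and 36.9% with IFNγ (exact permutation p = 0.0857), and HLA-F 3.11% and 2.26% (p = 0.143 by the same permutation test). Adjusted over the 5 comparisons made, which include the heavy chain sum per B2M (exact permutation p = 0.286), the HLA-E and HLA-C values were 0.0715 and none passed. In unstimulated libraries the HLA-E share alone ran from 10.3% to 38.2%. These shares also depend on the length used.

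**Figure D4:**
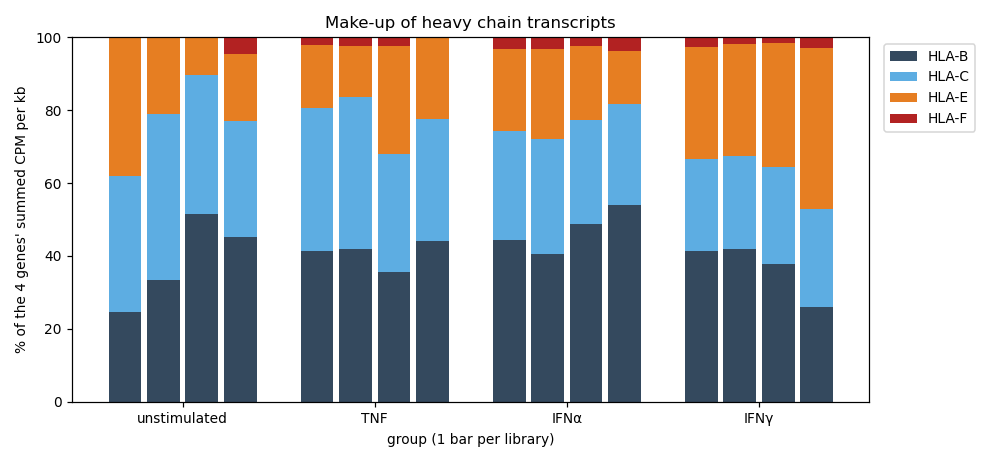
Share of HLA-B, HLA-C, HLA-E and HLA-F in their summed CPM per kb, 1 bar per library, for the unstimulated, TNF, IFNα and IFNγ groups. The HLA-E part covers 14.4% to 24.9% in IFNα bars and 30.5% to 44.1% in IFNγ bars, and differs most between bars in the unstimulated group.

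Over the 11 group means of log2 CPM, each member followed the mean profile of the 9 (of which it is itself part) at r = 0.885 (TAPBP) to 0.986 (B2M). The 4 other genes most like that profile were TMEM140 (r = 0.982), PSMB9 (0.976), ACKR4 (0.974) and PSMB8 (0.974). These are descriptions over 11 points that share their libraries. Over the 44 single libraries instead, PSMB9 (0.953), PSME2 (0.942), IFI30 (0.935) and PSMB8 (0.935) were among the highest and TMEM140 fell to rank 38.

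Other genes of antigen presentation followed the members in part. Counted together as the inducible set were the proteasome subunits PSMB8, PSMB9 and PSMB10, which cut peptides that TAP carries, and the activator genes PSME1 and PSME2. All were called higher with both interferons (5 of 5, median log2 2.77 with IFNα and 3.38 with IFNγ), and 4 of the 5, all but PSMB9, were higher with IFNγ than with IFNα. Of their constitutive counterparts PSMB5, PSMB6 and PSMB7, 0 of 3 were called with IFNα and 2 with IFNγ (PSMB6, log2 0.46; PSMB7, 0.69), but 3 of 3 with TNF and with IL-1β. Of the inducible set, 2 of 5 were called with each of these, the activator genes PSME1 (log2 1.17 with TNF and 0.75 with IL-1β) and PSME2 (1.57 and 0.97). This was not particular to them: IL-13 also raised PSME1 (log2 0.80), PSME2 (1.03) and PSMB6 (0.56). TGF-β1 raised PSMB6 (log2 0.50) and PSMB7 (0.67). Among 6 further loading and trimming genes, the aminopeptidases ERAP1 and ERAP2, which trim peptides in the endoplasmic reticulum, were called higher with IFNα (log2 1.97 and 2.30) and IFNγ (1.87 and 3.01). The chaperones CALR and PDIA3 did not pass with either interferon, and CANX was called lower with IFNα (log2 -0.48, adjusted p = 0.0363).

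Among the regulators of class I genes, STAT2, IRF1 and IRF9 were called higher with each interferon, while IRF2, RFX5, RFXANK and NFKB1 were not. IRF1, which binds interferon response elements, was the 1 of these that differed between them, at 7.16 to 27.7 CPM with IFNα and 115 to 130 CPM with IFNγ (log2 2.99, adjusted p = 1.23e-05). NFKB1, an NF-κB subunit gene, was the 1 of these called with TNF (log2 1.81, adjusted p = 0.0137) and with IL-1β (log2 1.73, adjusted p = 0.025). Class I-like genes did not follow: of 6 tested, 0 were called higher with any cytokine, and ULBP1, a ligand of the NKG2D receptor, was called lower with IFNγ (log2 -0.91, adjusted p = 0.00618) and TNF (-0.96, adjusted p = 0.00337) and also with IL-1β (-1.29, adjusted p = 0.000103). MICA, another NKG2D ligand, and ULBP1 were lower with IFNγ than with IFNα (log2 -1.66 and -1.13, adjusted p = 0.0238 and 0.000682). Of 7 class II genes listed, 5 passed the filter on low counts, and these 5 were called higher with IFNγ and 0 with IFNα. Genes near 0 elsewhere, such as HLA-DRA, could pass that filter only through the IFNγ libraries. The 5 of 5 with IFNγ is therefore in part set by the filter. CD74, the invariant chain, was at 158 to 623 CPM with IFNγ against at most 4.77 CPM with IFNα, and HLA-DRA at 160 to 249 CPM against at most 2.49 CPM.

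**Figure D5:**
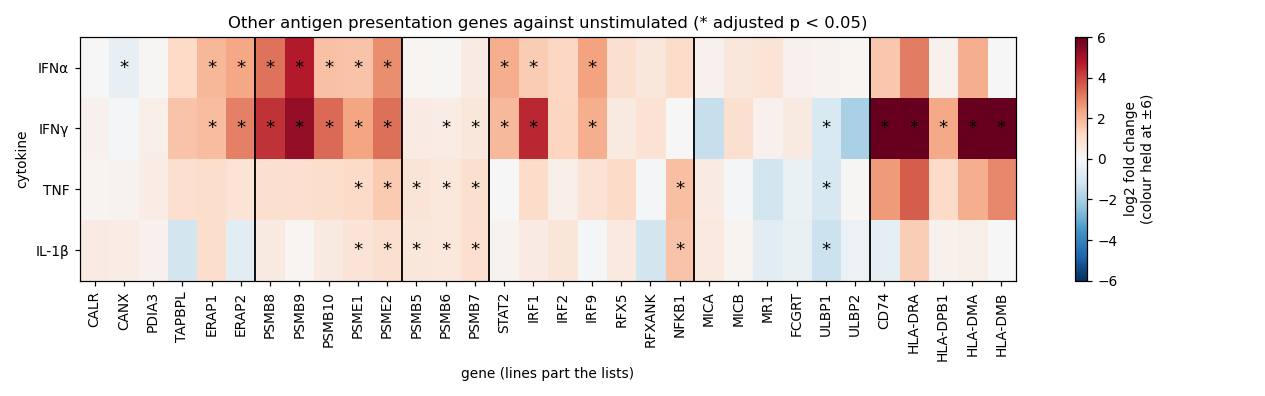
Log2 fold change against unstimulated cells (colour, held at ±6) of other antigen presentation genes, among those tested, for IFNα, IFNγ, TNF and IL-1β; lines part the lists (loading and trimming, inducible proteasome, constitutive proteasome, regulators, class I-like, class II) and stars mark an adjusted p under 0.05. The inducible proteasome genes are starred for both interferons, and the class II genes are starred in the IFNγ row and not in the other 3.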

How the data were processed

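RNA from 44 libraries of Ccd-18Co cells (11 groups, 4 replicates each) was extracted with column or 96-well kits, made into libraries with the NEBNext Ultra II RNA kit and sequenced on an Illumina NovaSeq instrument. The authors quantified transcripts with kallisto (version 0.48.0 in the submitters' processing notes, which also name hg38, FastQC 0.11.9 and MultiQC 1.14) at default settings and deposited 1 table of estimated counts per gene symbol; the transcriptome release and strand setting are not given in the sources used here. Of the values, 5.73% were not whole (tolerance 1e-06); they were rounded before testing. The labels do not say that replicates were separate cultures, so p-values measure the spread between these libraries, which may be technical.

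Genes were filtered with filterByExpr, scaled by TMM and tested with edgeR 4.0.16 (R 4.3.3; glmQLFit, glmQLFTest) over all 44 libraries; calls were made at adjusted p-values below 0.05. Intervals of fold changes are 95%. Simulated IFNγ against unstimulated data of 9513 genes gave back 43% of changes of log2 1 and 83% of log2 2, and 5.26% of its calls were false. Changes were planted only in genes over a minimum mean count, taken over all libraries. Recovery of changes in genes with few counts in unstimulated libraries was not tested. Alternatives were DESeq2 (1.42.0) size factors and Wald test, no low-count filter, only the libraries compared, fold thresholds, a replicate block and leaving out each replicate. The GC correction, the interferon against TNF contrasts and the heavy chain shares were added after seeing the data. Members, gene lists and the rule for named genes (all 9 members, the genes most like their mean profile by Pearson's r over group means, and list genes as examples) were chosen with earlier results of these data known. No 2 of 66 replicate pairs were identical or agreed within sampling noise. Gene positions are from GENCODE release 44, which matched 99.23% of the symbols. Values of some genes are not reported here.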

Additional observations from a re-analysis of the deposited data

Results flagged for a closer look

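In 94 sets of 4 libraries (1 gene in 1 group), 4 held a library whose gap to the nearest of the other 3 passed Dixon's 95% limit; about 4.7 would do so by chance. HLA-F stood at 2.73 CPM in unstimulated replicate 4 and at 0 in the others, and TAP2 at 37.4 CPM in IFNα replicate 4 against 51.2 to 54 CPM. HLA-E stood at 74.9 CPM in OSM replicate 1 against 42.7 to 47.8 CPM, and NLRC5 at 15.2 CPM in IL-22 replicate 1 against 3.77 to 3.85 CPM.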

How the results depend on the processing

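All 9 members were called higher with IFNα and with IFNγ under every alternative run, and none lower with any cytokine. The other counts of members called moved. With no filter on low counts, 1 was higher with IL-1β, 0 with IL-13 and 1 with IFNγ against IFNα, where 0 were lower. With only the 8 libraries compared, the counts were 1 with IL-1β, 0 with IL-13, 0 with IL-17A, 3 with TNF and 1 higher with IFNγ against IFNα; NLRC5 was removed there by the filter with IL-17A and TNF, so those calls were not tested. A log2 fold change above 1 left 0 with IL-1β, IL-13 and OSM and 0 lower with IFNγ against IFNα, and 5 with TNF; above 1.5 it left the same 0 counts and 2 with TNF. DESeq2 size factors gave 2 with OSM. The DESeq2 Wald test gave 2 with OSM, 7 with TNF, 1 higher with IFNγ against IFNα and 1 with TNF against IL-1β. GC correction gave 0 with OSM, 2 lower with IFNγ against IFNα and 1 with TNF against IL-1β. It also ended the call of NLRC5 with TNF (adjusted p = 0.133, edgeR).

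Leaving out 1 library gave 1 to 3 members with IL-1β, 0 to 2 with IL-13, 0 to 1 with IL-17A, 0 to 2 with TGF-β1, 4 to 7 with TNF, 1 to 3 with OSM, 0 to 1 lower with IFNγ against IFNα and 6 to 7 with IFNα against TNF; the highest counts with IL-13 (2), TGF-β1 (2), TNF (7) and OSM (3) came without unstimulated replicate 1. Of the fold changes, 3 turned sign. HLA-F with IL-1β ranged from -3.08 to 1.45 (1.45 without unstimulated replicate 4). B2M in IFNγ against IFNα was 0 with DESeq2 size factors and with the Wald test, 0.1 after GC correction, and -0.06 to 0.04 leaving out 1 library. TAP2 in the same contrast was -0.37 to 0.15. The cause of these shifts was not tested. Of 983 recomputed log2 fold changes of 66, 911 kept their direction and side of the threshold. Sizes moved as well. Over the alternatives other than leaving out 1 library, HLA-B ranged from log2 2.88 to 3.34 with IFNγ and 1.08 to 1.46 with TNF. HLA-C ranged from log2 2.29 to 2.76 with IFNγ. A replicate block changed no count: 9 members with IFNα, 9 with IFNγ, 6 with TNF and 3 with IL-1β. The labels do not pair libraries by number, and the deviations of same-numbered libraries had a mean r of 0.0237 (-0.0077 for other numbers) with 20 of 220 pairs over 0.1, so no pairing was used; 22 of 44 libraries were closest to their own number of the 4, a hint from the data, not the design. Depth limits HLA-F, TAP1, TAP2 and NLRC5, which had few counts in unstimulated libraries.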
